A study of Mus musculus with 32 samples.

Results

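The genes Arntl, Npas2, Per1, Per2, Per3, Nr1d1, Nr1d2, Dbp, Tef and Hlf of the circadian clock were followed in bone and gingiva of mice with a treated upper molar. They are 10 of 55359 genes listed in each tissue's table, and all 10 passed the filter on low counts in both tissues. The genes were selected on shifts of their expression values between the treatment groups of these same libraries, so their differences between treatment groups are given below as a description, with no test of them. All mice were wild type C57BL/6J males that entered the experiment at 9 weeks of age, and RNA was sequenced from the bone and from the gingiva. Li mice had a silk ligature tied round the left upper second molar, which induces periodontitis. Tra mice had composite resin built up on the biting surface of the same tooth, a model of traumatic occlusion. LiTra mice had both, and Co mice had neither. Each group had 4 libraries per tissue, 32 in all, numbered 1 to 4. The labels give neither the time of day nor the interval from treatment to sampling, and they do not say whether libraries come from single or pooled mice. P-values below measure the spread between these libraries, since the labels do not state what a replicate is.

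In the mammalian clock, Arntl (also called Bmal1) pairs with CLOCK or with its relative NPAS2 and activates genes through E-boxes. The period proteins PER1, PER2 and PER3 act with the cryptochromes to repress that pair, which closes a daily loop. NR1D1 and NR1D2 (REV-ERB alpha and beta) repress Arntl and Npas2 through ROR elements. DBP, TEF and HLF are bZIP factors of the PAR family that activate genes through D-boxes, and Dbp itself is driven by E-boxes. Transcripts of Arntl and of Dbp or Nr1d1 therefore peak at nearly opposite times of day in most mouse tissues.

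Sequence elements of these kinds were looked up in the promoter windows of the clock genes, and those found are shown as matches to the kinds of element named above. Windows ran from 250 bases before to 50 after an annotated start, in the RefSeq table of build GRCm38.p6, and 9 of the 10 genes had at least 1 window there. Per2 had no window and was not searched. The windows of Dbp, Npas2, Nr1d2 and Hlf held no match. Each line gives 30 bases, 5′ to 3′ on the strand of the gene, with the matched letters in capitals.
Arntl, ROR element, chr7:113207529-113207558, plus strand: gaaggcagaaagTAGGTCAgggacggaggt
Nr1d1, E′-box in reverse, chr11:98775388-98775417, minus strand: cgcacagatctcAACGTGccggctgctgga
Per1, E-box, chr11:69098771-69098800, plus strand: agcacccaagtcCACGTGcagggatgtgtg
Per3, first D-box, chr4:151044805-151044834, minus strand: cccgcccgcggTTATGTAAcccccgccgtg
Per3, second D-box, chr4:151044852-151044881, minus strand: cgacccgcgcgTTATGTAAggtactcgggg
Tef, E-box of the first start, chr15:81802534-81802563, plus strand: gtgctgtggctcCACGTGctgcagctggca
Tef, E-box of the second start, chr15:81811264-81811293, plus strand: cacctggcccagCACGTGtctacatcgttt
The letters searched on both strands were CACGTG (E-box), CACGTT (E′-box), TTATGTAA or TTACGTAA (D-box) and TAGGTCA (ROR element). No 2 of these motifs overlapped in the lines shown. Of 32851 windows in the table, 7.15% held the E-box, 4.68% the E′-box, 1.06% the D-box and 2.61% the ROR element. A match describes these letters and is neither a shown binding site nor a cause of any value below.

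Bone libraries held 38163979 to 70793037 counts and gingiva libraries 36913075 to 50740393. In bone, 5 markers of nasal glands took 46.4% of the counts of Co 3, 49.4% of LiTra 1 and 14.4% of Tra 3, and the top 10 genes by count made up 51.1% of Co 3, 53.6% of LiTra 1 and 62.9% of Tra 3. Li 2, with 23.9%, and Co 4, with 14.6%, also held many nasal gland reads. Bone differences are given with and without Co 3, Tra 3 and LiTra 1, whose top 10 genes took the largest shares, where that matters. Li 2 and Co 4 were kept, so the values without Co 3, Tra 3 and LiTra 1 are not free of nasal gland reads. As a check of the tissue labels, markers were summed in CPM, that is, counts after scaling for library size. Sums of 5 osteoblast markers were 6066 to 19961 CPM over the bone libraries and 663 to 2252 CPM over the gingiva libraries. Those of 5 keratins of oral epithelium were 37626 to 109671 CPM over the gingiva libraries and 14.4 to 5907 CPM over the bone libraries. The highest keratin sums in bone were 5907 CPM in Co 1 and 2898 CPM in Li 3.

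In untreated mice, the 10 genes differed in level by more than an order of magnitude. Per kilobase of exon, Dbp stood highest in Co bone, at 30.9 ± 0.76 CPM per kb (SD, n = 4), and Npas2 lowest, at 0.518 ± 0.23 CPM per kb. Between them came Tef at 25.8, Nr1d2 at 23.4, Nr1d1 at 22.1, Per1 at 18.8, Per2 at 12.0, Per3 at 10.5, Hlf at 5.57 and Arntl at 1.04 CPM per kb. Neighbours from Tef to Per1, Per2 and Per3, and Arntl and Npas2 lay closer together than the sum of their SDs. Gingiva of Co mice gave the same order by mean, with Dbp at 38.1 ± 5.7 and Npas2 at 0.273 ± 0.10 CPM per kb. There Dbp, Tef and Nr1d2 lay within their SDs of their neighbours, as did Per1, Per2 and Per3.

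Bone and gingiva of Co mice were compared in a fit of all 32 libraries, a contrast that was not used to choose the genes. Per1 and Npas2 were higher in bone, Tef and Nr1d2 lower, and the other 6 did not pass the test. edgeR's quasi-likelihood test called 53.6% of 22559 genes at an adjusted p under 0.05, 27.2% higher and 26.4% lower in bone, so 4 of 10 is no more than the share of all genes. Per1 had 106, 109.7, 102 and 104 CPM in Co bone, against 58.4, 62.9, 74.6 and 51.3 CPM in Co gingiva. All 4 bone libraries lay above all 4 gingiva libraries, a log2 difference of 0.77 ± 0.21 (SE; edgeR adjusted p = 0.00297). Tef, with 205, 194, 212 and 195 CPM in Co bone and 302, 249, 299.9 and 263 CPM in Co gingiva, was lower in every bone library, by -0.47 ± 0.14 (edgeR adjusted p = 0.00785). Nr1d2 had 139, 122, 143 and 99.1 CPM in Co bone, against 192, 154, 199.7 and 162 CPM in Co gingiva. These libraries did not overlap either, with a log2 difference of -0.49 ± 0.19 (edgeR adjusted p = 0.0294). Npas2, at 2.64, 2.999, 0.885 and 3.42 CPM in Co bone and 0.848, 1.94, 1.44 and 1.03 CPM in Co gingiva, overlapped, and its difference of 0.92 ± 0.39 passed narrowly (edgeR adjusted p = 0.0473). The calls of Per1 and Tef held without each of the 32 libraries in turn, whereas that of Nr1d2 was lost without Co 2 or Co 4 of bone or Co 1 or Co 3 of gingiva. That of Npas2 was lost in 10 of the 32 fits (without bone LiTra 1, Co 1, Co 2 or Co 4, or without gingiva Li 3, Li 4, LiTra 1, Co 1, Co 3 or Co 4). Of 20 other clock genes, 4 were higher in bone and 8 lower.

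**Figure D1:**
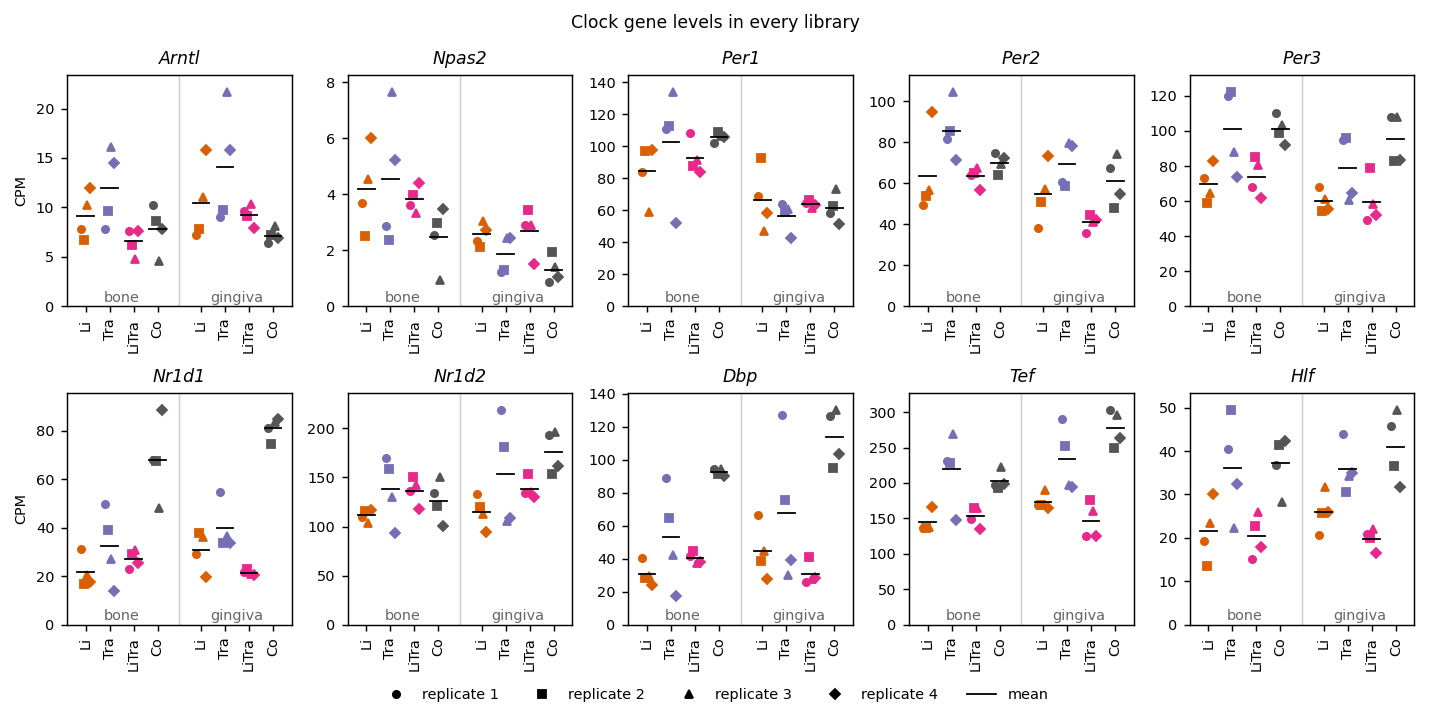
Level of each clock gene in CPM (linear axis from 0) in every library, with the 4 groups of bone on the left of each panel and the 4 groups of gingiva on the right; symbols mark the replicate number and bars the group mean (n = 4). Dbp lay below all Co libraries in 12 of 12 treated bone libraries and 11 of 12 treated gingiva libraries, and Arntl lay above all Co libraries in 9 of 12 treated gingiva libraries.

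The activators Arntl and Npas2 were low in level and tended upward in treated gingiva. In gingiva, Arntl had 7.19, 7.83, 11.03 and 15.8 CPM in Li, 9.04, 9.72, 21.7 and 15.8 CPM in Tra, 9.68, 9.11, 10.4 and 7.93 CPM in LiTra and 6.39, 7.16, 8.15 and 6.88 CPM in Co libraries. Every Tra library lay above every Co library, and 9 of the 12 treated libraries lay above the highest Co value. The log2 differences from Co were 0.55 ± 0.28 in Li, 0.98 ± 0.28 in Tra and 0.38 ± 0.28 in LiTra (± SE from edgeR's fit of 16 libraries, as for all log2 differences below). In bone the Arntl values were 7.79, 6.68, 10.2 and 12.0 CPM in Li, 7.82, 9.61, 16.1 and 14.5 CPM in Tra, 7.63, 6.23, 4.81 and 7.60 CPM in LiTra and 10.2, 8.58, 4.55 and 7.83 CPM in Co libraries. The groups overlapped with Co in all 3 comparisons, and LiTra lay wholly below Tra. The bone differences from Co were 0.23 ± 0.29 in Li, 0.62 ± 0.29 in Tra and -0.25 ± 0.29 in LiTra. Without Co 3, Tra 3 and LiTra 1 they came to 0.04, 0.25 and -0.52 for Li, Tra and LiTra, so Arntl in bone depended on those libraries. Because whole pieces of tissue were sequenced, fewer cells of a type and less RNA per cell cannot be told apart in these or any later values.

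Npas2, the partner of Arntl that can stand in for CLOCK, had the fewest reads of the 10 genes. In gingiva it had 2.35, 2.12, 3.05 and 2.73 CPM in Li, 1.23, 1.29, 2.43 and 2.45 CPM in Tra, 2.91, 3.45, 2.89 and 1.51 CPM in LiTra and 0.850, 1.94, 1.41 and 1.03 CPM in Co libraries. All Li libraries lay above all Co libraries, while Tra and LiTra overlapped with Co. The log2 differences from Co were 0.97 ± 0.33 in Li, 0.50 ± 0.33 in Tra and 1.04 ± 0.33 in LiTra. In bone Npas2 ranged from 2.51 to 6.01 CPM in Li, 2.37 to 7.66 CPM in Tra, 3.32 to 4.42 CPM in LiTra and 0.926 to 3.47 CPM in Co libraries. Its lowest value came from Co 3 and its highest from Tra 3, 2 of the libraries rich in nasal gland reads. The difference of Tra from Co in bone was 0.86 ± 0.42 with them and 0.21 without Co 3, Tra 3 and LiTra 1.

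Among the period genes, Per3 was lower in ligated tissue, Per2 was lower in LiTra gingiva, and Per1 differed little. Per3, whose product is not needed for the core loop but whose transcript cycles strongly, had 68.2, 54.5, 61.2 and 55.5 CPM in Li, 94.9, 95.8, 60.3 and 64.6 CPM in Tra, 49.1, 79.0, 58.2 and 52.1 CPM in LiTra and 108, 82.6, 108 and 83.3 CPM in Co gingiva. Li and LiTra lay wholly below Co, by -0.67 ± 0.18 and -0.68 ± 0.18 on the log2 scale. Of the Tra libraries, 1 and 2 lay within the Co range and 3 and 4 below it, for a difference of -0.27 ± 0.18. In bone Per3 had 73.1, 59.1, 64.6 and 82.7 CPM in Li, 120.2, 122, 87.7 and 73.9 CPM in Tra, 68.1, 85.2, 80.7 and 61.5 CPM in LiTra and 110.1, 98.9, 103 and 92.2 CPM in Co libraries. Li and LiTra again lay below every Co library, by -0.53 ± 0.16 and -0.45 ± 0.16, and the means of Tra and Co were nearly equal. The replicate order within Tra was like that of gingiva, with 1 and 2 above the Co range and 3 and 4 below it.

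Per2, a repressor that the core loop requires, had 37.9, 50.7, 57.1 and 73.1 CPM in Li, 60.7, 58.8, 79.7 and 77.9 CPM in Tra, 35.6, 44.6, 41.3 and 42.1 CPM in LiTra and 67.2, 47.9, 74.4 and 54.5 CPM in Co gingiva. LiTra lay wholly below Co, by -0.58 ± 0.18, and wholly below Tra, by -0.76 ± 0.18. Li and Tra overlapped with Co, at -0.16 ± 0.18 and 0.18 ± 0.18. Here Tra 3 and Tra 4 were the high libraries of their group, the reverse of Per3. In bone Per2 ranged from 49.2 to 94.9 CPM in Li, 71.4 to 105 CPM in Tra, 56.5 to 67.6 CPM in LiTra and 63.9 to 74.5 CPM in Co libraries, with overlap between each treated group and Co. Per1, the light- and glucocorticoid-responsive period gene, ranged from 47.3 to 92.4 CPM in Li, 42.5 to 63.9 CPM in Tra, 61.2 to 66.2 CPM in LiTra and 51.3 to 73.5 CPM in Co gingiva. Its differences from Co there lay between -0.12 ± 0.17 in Tra and 0.12 ± 0.17 in Li. In bone Per1 had 84.0, 97.2, 58.8 and 97.5 CPM in Li, 111, 113, 134 and 51.9 CPM in Tra, 109, 87.5, 91.7 and 83.7 CPM in LiTra and 102, 109, 106 and 106 CPM in Co libraries. The Co values were within 1.07-fold of each other and every Li value lay below them, a difference of -0.33 ± 0.23.

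Nr1d1, which represses Arntl, was among the genes furthest below Co in both tissues. In gingiva Nr1d1 had 29.1, 37.9, 36.4 and 19.5 CPM in Li, 54.8, 33.9, 36.8 and 33.8 CPM in Tra, 21.7, 22.9, 20.7 and 20.3 CPM in LiTra and 81.2, 74.5, 83.7 and 85.0 CPM in Co libraries. All 12 treated libraries lay below all 4 Co libraries, and the LiTra values were within 1.13-fold of each other. The log2 differences from Co were -1.40 ± 0.19 in Li, -1.03 ± 0.18 in Tra and -1.92 ± 0.19 in LiTra. In bone Nr1d1 had 31.4, 16.6, 20.5 and 17.8 CPM in Li, 49.9, 39.3, 27.3 and 13.8 CPM in Tra, 22.8, 29.4, 30.8 and 25.5 CPM in LiTra and 68.1, 67.6, 48.3 and 88.5 CPM in Co libraries. All but 1 of the 12 treated libraries lay below the Co range, Tra 1 being just above Co 3. The bone differences from Co were -1.66 ± 0.32 in Li, -1.07 ± 0.32 in Tra and -1.33 ± 0.32 in LiTra, and without Co 3, Tra 3 and LiTra 1 they were -1.79, -1.14 and -1.39.

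Its relative Nr1d2, which shares the repressor role, differed less from Co. Nr1d2 had 133, 119.7, 113 and 94.9 CPM in Li, 219, 181, 106 and 108 CPM in Tra, 134, 154, 135 and 130.4 CPM in LiTra and 193, 153, 197 and 162 CPM in Co gingiva. Li lay wholly below Co, by -0.61 ± 0.20, and the Tra libraries ran from the highest to nearly the lowest value of the tissue. In bone Nr1d2 ranged from 104 to 117 CPM in Li, 93.9 to 169 CPM in Tra, 117 to 150.2 CPM in LiTra and 100.5 to 150.0 CPM in Co libraries, and no treated group was separate from Co. Exons of Nr1d1 and of the opposite-strand gene Thra, which encodes a thyroid hormone receptor, share 263 bases, 8.55% of the exon sequence of Nr1d1 in GENCODE M21. The use of strand in counting is not given in the sources used here. Reads from the shared bases therefore cannot be told apart. Thra, looked at because of this overlap, differed from Co by -0.62 ± 0.12 in Li and -0.93 ± 0.12 in LiTra gingiva, and by -0.36 ± 0.14 and -0.30 ± 0.14 in Li and LiTra bone. Its part in the Nr1d1 values was not tested.

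Dbp, a D-box activator that E-boxes drive in turn, was lower in nearly every treated library. In bone Dbp had 40.5, 28.3, 29.4 and 23.9 CPM in Li, 88.9, 64.8, 42.1 and 17.5 CPM in Tra, 41.7, 44.8, 37.5 and 37.9 CPM in LiTra and 94.5, 91.2, 94.3 and 89.9 CPM in Co libraries. All 12 treated libraries lay below all 4 Co libraries, although Tra 1 missed the Co range by little. The log2 differences from Co were -1.60 ± 0.34 in Li, -0.79 ± 0.33 in Tra and -1.19 ± 0.33 in LiTra. In gingiva Dbp had 66.5, 38.8, 45.0 and 27.6 CPM in Li, 127, 75.7, 30.1 and 39.4 CPM in Tra, 25.7, 41.1, 28.0 and 28.4 CPM in LiTra and 127, 95.04, 130.1 and 104 CPM in Co libraries. Tra 1 alone reached the Co range, and the differences from Co were -1.36 ± 0.37 in Li, -0.74 ± 0.36 in Tra and -1.89 ± 0.37 in LiTra. Dbp shares 539 of its 2993 exon bases with the opposite-strand gene Sphk2, a sphingosine kinase, so reads there cannot be told apart without strand. Sphk2 differed from Co by -0.04 ± 0.14 in Li and -0.21 ± 0.14 in LiTra bone, and by 0.17 ± 0.15 and -0.35 ± 0.15 in Li and LiTra gingiva. The part of Sphk2 in the Dbp values was not tested.

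Tef and Hlf, the other PAR factors, were lower in the ligated groups, and their means under overload alone were nearer to Co. Tef had 169, 169, 191 and 165 CPM in Li, 290.0, 252, 197 and 194 CPM in Tra, 125, 176, 161 and 125 CPM in LiTra and 303, 249, 295 and 263 CPM in Co gingiva. Li and LiTra lay wholly below Co, by -0.68 ± 0.14 and -0.92 ± 0.14, and Tra overlapped with it, at -0.25 ± 0.14. In bone Tef had 136, 137, 138 and 167 CPM in Li, 230.4, 228, 269.6 and 148 CPM in Tra, 149, 165, 165 and 135 CPM in LiTra and 198, 193, 222 and 198 CPM in Co libraries. Li and LiTra were again below every Co library, by -0.49 ± 0.15 and -0.40 ± 0.15, while Tra 1, Tra 2 and Tra 3 exceeded them all. Hlf had 20.7, 25.7, 31.8 and 25.9 CPM in Li, 44.0, 30.5, 34.2 and 35.1 CPM in Tra, 20.8, 19.9, 22.0 and 16.5 CPM in LiTra and 45.7, 36.7, 49.4 and 31.8 CPM in Co gingiva. LiTra lay wholly below Co, by -1.04 ± 0.16, and Li touched the Co range through Li 3, at -0.65 ± 0.16. In bone Hlf ranged from 13.6 to 29.998 CPM in Li, 22.2 to 49.4 CPM in Tra, 15.2 to 26.1 CPM in LiTra and 28.3 to 42.3 CPM in Co libraries, with differences from Co of -0.79 ± 0.27 in Li, -0.04 ± 0.27 in Tra and -0.86 ± 0.27 in LiTra.

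**Figure D2:**
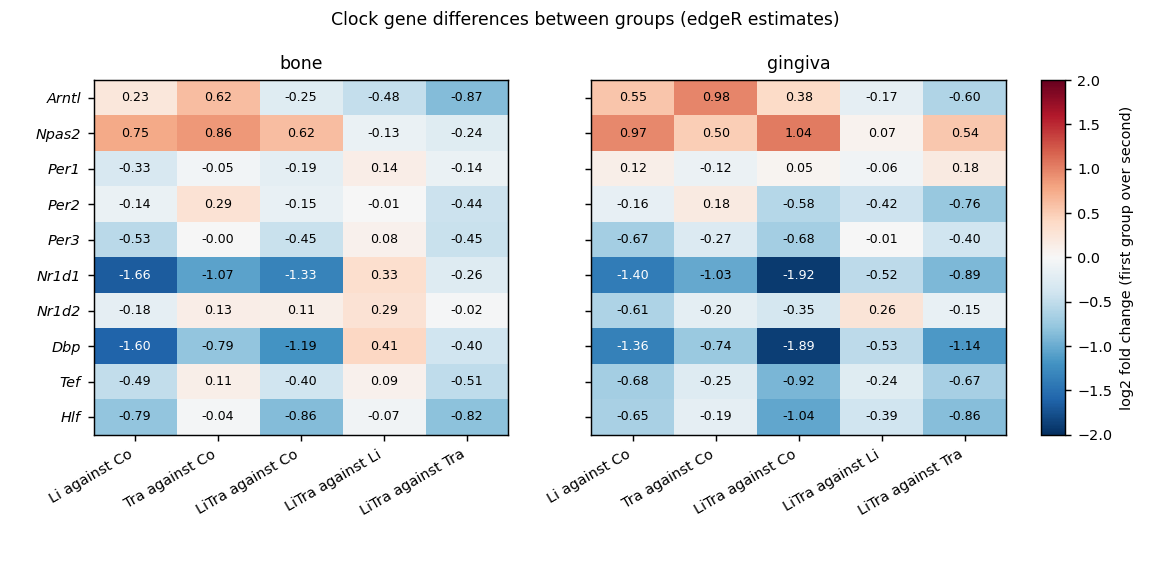
Log2 fold change (first group over second, edgeR estimates, n = 4 per group) of each clock gene in 5 comparisons, for bone on the left and gingiva on the right; red is higher in the first group and blue lower, and each cell prints its value. Nr1d1 and Dbp are the darkest blue rows against Co in both tissues, with Nr1d1 at -1.92 in LiTra gingiva.

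Set out by comparison, the directions and medians describe the contrasts on which the genes were chosen, and no test is given. In Li against Co bone, 2 of the 10 genes were higher and 8 lower, with a median log2 difference of -0.41 beside -0.02 over all genes tested. In LiTra against Co bone, 2 were higher and 8 lower with a median of -0.32 beside -0.01 over all genes tested. In Li against Co gingiva, 3 were higher and 7 lower with a median of -0.63 beside 0.0045 over all genes tested. In LiTra against Co gingiva, 3 were higher and 7 lower with a median of -0.63 beside -0.01 over all genes tested.

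Under overload alone, the 10 genes had a median log2 difference from Co of 0.06 in bone and -0.19 in gingiva. The medians over all genes tested were 0.02 and -0.008. Nr1d1 was the lowest in both, at -1.07 ± 0.32 in bone and -1.03 ± 0.18 in gingiva. In LiTra against Li, Dbp differed by 0.41 ± 0.33 in bone and -0.53 ± 0.36 in gingiva, and Nr1d1 by 0.33 ± 0.32 in bone and -0.52 ± 0.18 in gingiva. In LiTra against Tra, all 10 genes were lower in bone, by -0.02 ± 0.16 for Nr1d2 to -0.87 ± 0.29 for Arntl. Their median was -0.42, beside -0.04 over all genes tested. The direction of several rested on 1 library. Without Tra 1, Nr1d1 (0.02) and Nr1d2 (0.10) were higher in LiTra, and without Tra 3, Per1 (0.03) and Npas2 (0.14) were. Without Co 3, Tra 3 and LiTra 1, Npas2 was higher in LiTra than in Tra bone, at 0.16 against -0.24 ± 0.42 with them. In gingiva, 2 were higher and 8 lower in LiTra than in Tra, and the lowest was Dbp at -1.14 ± 0.37. The comparisons with Co share their Co libraries, and those of LiTra share their LiTra libraries.

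Markers of other cell types also differed between the groups. Over all genes, edgeR called 3.51% of 21205 in bone and 7.49% of 20143 in gingiva for Li against Co, and 16.9% in bone and 22.9% in gingiva for LiTra against Co. In bone, 5 erythroid markers summed to 6624 to 19338 CPM in Li, 13862 to 42170 CPM in Tra, 1679 to 5723 CPM in LiTra and 22126 to 43880 CPM in Co libraries, and edgeR called all 5 lower in LiTra and none in Li against Co. Markers of B cells in bone summed to 30.7 to 122 CPM in Li, 26.0 to 161 CPM in Tra, 25.1 to 52.9 CPM in LiTra and 211 to 323 CPM in Co libraries, with 5 of 5 called lower in Li and in LiTra. In gingiva, the 5 oral epithelium keratins summed to 37626 to 83672 CPM in Li, 88234 to 109671 CPM in Tra, 41599 to 55542 CPM in LiTra and 71410 to 89681 CPM in Co libraries, with 1 higher in Li and 1 higher and 3 lower in LiTra. Neutrophil markers there summed to 801 to 7001 CPM in Li, 103 to 462 CPM in Tra, 1923 to 8705 CPM in LiTra and 120 to 738 CPM in Co libraries, with 2 of 5 called higher in Li and in LiTra. Elane, a neutrophil marker, and Ms4a1, a B cell marker, were at 0 in all LiTra gingiva libraries. The part of these shifts in the clock gene values was not tested.

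The Tra group was the most uneven in Dbp in both tissues. Its level varied 5.08-fold between the lowest and the highest Tra library of bone and 4.22-fold in gingiva, against 1.05-fold and 1.37-fold in Co. In both tissues Tra 1 had the highest Dbp of its group, followed by Tra 2, and Tra 3 and Tra 4 were lower. Arntl ran the other way, with Tra 3 and Tra 4 above Tra 1 and Tra 2 in both tissues. Li 4 likewise had the lowest Dbp and the highest Arntl of its group in bone and in gingiva.

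**Figure D3:**
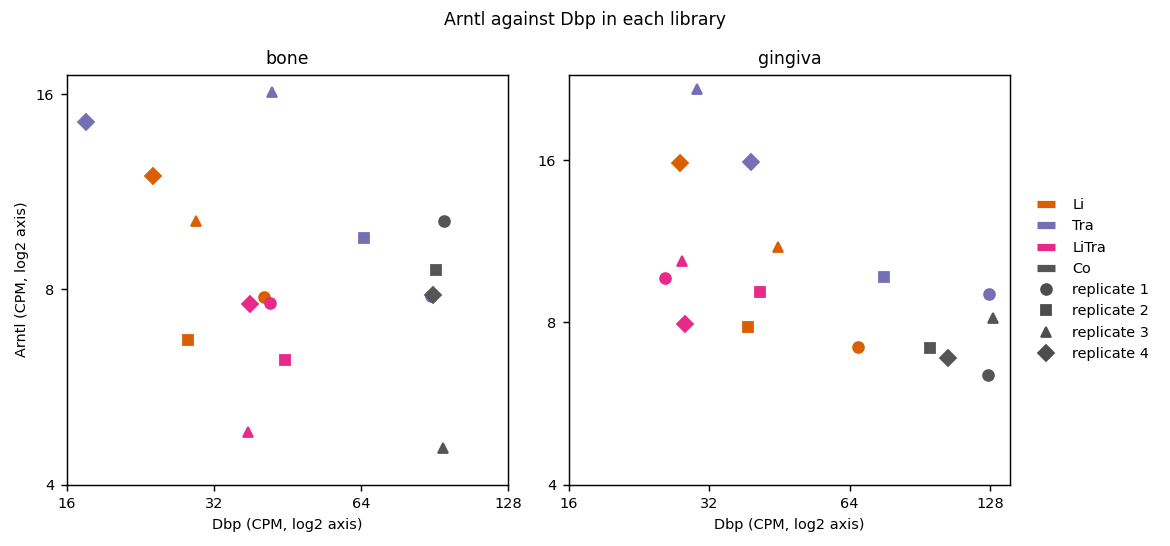
Arntl against Dbp in each library (CPM, both axes log2), for bone on the left and gingiva on the right; colour marks the group and symbol the replicate number. Tra libraries (purple) run from the lower right, at 127 CPM of Dbp and 9.04 CPM of Arntl in gingiva Tra 1, to the upper left, at 30.1 and 21.7 CPM in gingiva Tra 3.

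Whether the genes deviated together inside a group was tested on log2 CPM after each group's mean was removed, which takes out the shifts that chose the genes. Of 18 relations of Arntl with the other 9 genes in 2 tissues, 1 passed, that of Arntl with Npas2 in bone. Its Pearson r was 0.865 over 16 libraries (two-sided permutation p = 0.00152, adjusted p = 0.0274 over the 18) and its Spearman rho 0.794 (permutation p = 0.00537, adjusted p = 0.0967). The r was 0.792 without the 2 libraries whose Arntl deviation lay farthest from the median. The call was lost in 9 of the 16 fits that each left out 1 bone library (Li 1, Li 2, Li 3, Li 4, Tra 3, Tra 4, LiTra 3, Co 2 or Co 3). Leaving out a gingiva library does not change this r. Without bone Co 3, Tra 3 and LiTra 1 together r was 0.781 with an adjusted permutation p of 0.0742. In gingiva the same pair had r = 0.653 and rho = 0.688 (adjusted permutation p = 0.0509 for r). The most negative relations were those of Arntl with Dbp (r = -0.812, rho = -0.703) and with Nr1d2 (r = -0.798, rho = -0.709) in gingiva, and Arntl with Per2 was positive there (r = 0.718, rho = 0.706). Each of these 3 had an adjusted permutation p of 0.0644 for r, above the threshold. In bone Arntl with Dbp had r = -0.494 and rho = -0.462 (adjusted permutation p = 0.239 for r).

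Same-numbered libraries of the 2 tissues were set against each other in the same way, although the labels do not say that they come from 1 mouse. None of the 10 relations passed at an adjusted permutation p under 0.05. Per3 had r = 0.756 and rho = 0.779 over the 16 pairs (permutation p = 0.0132 for r, adjusted p = 0.111). Its r was 0.704 without the 2 pairs whose bone deviation lay farthest from the median. Dbp had r = 0.751 and rho = 0.812 (permutation p = 0.0607 for r and 0.00893 for rho, adjusted p = 0.152 and 0.0712). Nr1d2 had r = 0.725 and Per1 r = 0.681, each with an adjusted permutation p of 0.111. The r of Per1 was 0.313 without its 2 pairs farthest in bone. Arntl had r = 0.514 and Hlf, the lowest, r = -0.0366. Without the pairs Co 3, Tra 3 and LiTra 1, Dbp passed with r = 0.886 (adjusted permutation p = 0.0043), the others of the 10 did not, and leaving out Tra 4 alone gave 3 passing relations.

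**Figure D4:**
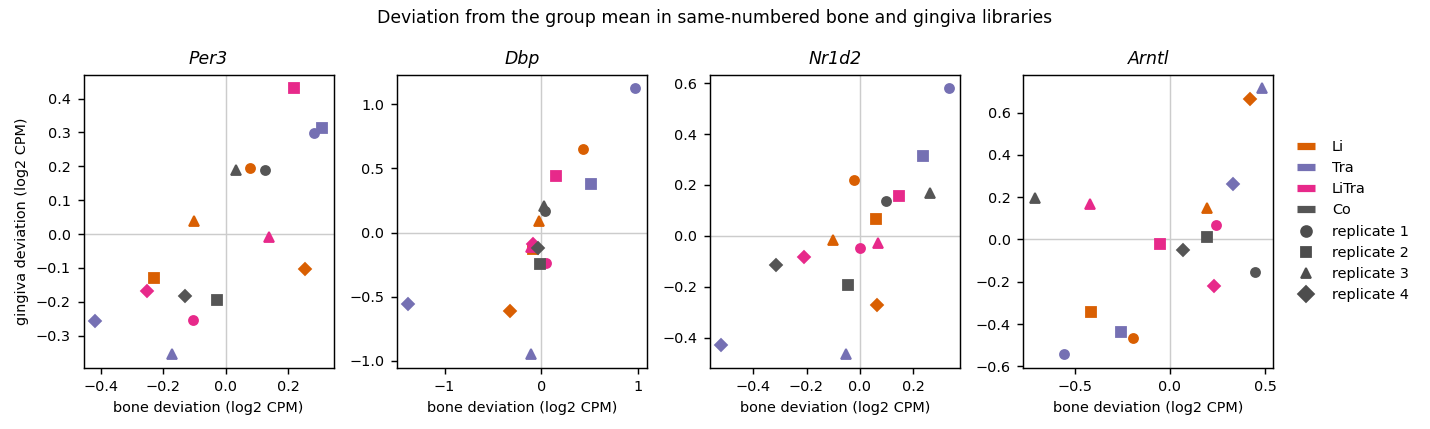
Deviation of each library from its group's mean (log2 CPM), bone on the horizontal and gingiva on the vertical axis, for Per3, Dbp, Nr1d2 and Arntl; each point is a same-numbered pair, coloured by group, with n = 16. For Dbp, Tra 1 (purple) lies at the upper end on both axes, Tra 4 at the lower end in bone only and Tra 3 at the lower end in gingiva only. The r of Dbp over all pairs is 0.751.

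Several clock genes were also high in the list of genes that varied like Dbp inside the groups, a description over 16 libraries that share their tissue and normalization. In bone, among 13988 genes, Nr1d1 was the gene most like Dbp (r = 0.871), and Nr1d2 held place 8, Per3 place 24, Per1 place 62 and Tef place 121. The 5 others closest to Dbp there were Ciart, a repressor of the clock, at r = 0.845, and Smim4, Cebpb, Galk2 and Acad12, at 0.840 to 0.776. In gingiva, among 13959 genes, Nr1d2 was first (r = 0.955), with Per3 in place 19, Tef in place 112 and Nr1d1 in place 881. Gm9821, Prmt9, Ago4 and Sirt5 were among the next after Nr1d2, at r = 0.913 to 0.893. Hlf lay at r = 0.182 to Dbp in bone and 0.189 in gingiva, Per2 at -0.0318 in bone and -0.467 in gingiva, and Per1 held place 3480 in gingiva. For Arntl, Npas2 held place 3 in bone, among Ndel1, Tbc1d10a, Camsap1, Unc45a and Zdhhc5 at r = 0.885 to 0.833. In gingiva Rnf25, Vasn, Spire2, Ptpru and Pop5 led, at r = 0.894 to 0.872, Per2 held place 249, and Dbp and Nr1d2 were 44th and 66th from the bottom; Npas2 was under the level required for the ranking there.

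The 20 other clock genes, none of them among the 10, were tested in the same fits, and all 20 passed the filter in both tissues. In Li against Co gingiva 2 rose and 3 fell, where 5.19% of all genes were called higher and 2.30% lower. In LiTra against Co gingiva 2 rose and 8 fell, where 11.4% of all genes were called higher and 11.5% lower, with a median log2 difference over the 20 of -0.17 beside -0.01 over all genes. Nfil3, whose product opposes the PAR factors at D-boxes, rose in Li to 18.8 ± 9.22 CPM, against 4.57 ± 1.66 CPM in Co (SD, n = 4 each; log2 difference 2.04 ± 0.34, edgeR adjusted p = 0.00449). In LiTra it rose to 16.1 ± 3.98 CPM (log2 difference 1.82 ± 0.34, edgeR adjusted p = 0.00235), and all Li and LiTra libraries lay above all Co libraries. Arntl2, a paralog of Arntl, rose to 42.0 ± 5.43 CPM in LiTra, against 23.5 ± 2.49 CPM in Co (log2 difference 0.83 ± 0.11, edgeR adjusted p = 0.000287). It also rose in Li, by 0.52 ± 0.11, a call lost with only the 2 groups compared (edgeR adjusted p = 0.0512).

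Usp2, a deubiquitinase whose transcript follows the clock, fell to 13.1 ± 2.45 CPM in LiTra gingiva, against 43.2 ± 6.26 CPM in Co (log2 difference -1.72 ± 0.24, edgeR adjusted p = 0.000435). Bhlhe41, an E-box repressor, had 13.1 ± 4.77 CPM in LiTra and 32.8 ± 6.19 CPM in Co, a log2 difference of -1.33 ± 0.21 (edgeR adjusted p = 0.000858). Ciart, Rora, Csnk1e, Nampt and Cry2 also fell in LiTra, by -1.20 ± 0.36, -0.79 ± 0.20, -0.76 ± 0.15, -0.67 ± 0.12 and -0.65 ± 0.16. They encode a clock repressor, an activator at ROR elements, a kinase of the period proteins, an enzyme of NAD salvage and a cryptochrome. Bhlhe41, Nampt and Usp2 fell in Li as well, by -1.30 ± 0.21, -0.70 ± 0.12 and -0.96 ± 0.23. The calls of Ciart (without LiTra 1, LiTra 2, LiTra 4, Co 1, Co 3 or Co 4) in LiTra and of Usp2 in Li (without Li 1, Li 2, Co 1, Co 3 or Co 4) were lost. The keratin sums given above were lower in the LiTra libraries, and their part in these falls was not tested.

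Against Tra, LiTra gingiva showed 2 of the 20 higher and 8 lower, where edgeR called 18.8% of all genes, 9.36% higher and 9.44% lower. Arntl2 and Nfil3 rose, by 0.90 ± 0.11 and 0.996 ± 0.33, and Usp2, Rora, Csnk1e, Bhlhe41, Cry2, Nampt and Wee1, a kinase that restrains mitosis, were among those that fell, by between -0.40 ± 0.12 for Wee1 and -1.44 ± 0.24 for Usp2. The call of Nfil3 was lost in 11 of 16 fits that each left out 1 library, that of Wee1 in 6 and that of Bhlhe41 in 5. In Tra against Co, edgeR called 0 of all genes in both tissues (0%), where 2023 in bone and 1323 in gingiva had an unadjusted p under 0.05 and DESeq2 called 156 in bone and 88 in gingiva. Of the 20 it called 0 in bone and in gingiva, where 1 and 2 had an unadjusted p under 0.05, and DESeq2 called 0 in both. In LiTra against Li, edgeR called 0 of all genes in bone (0%) and 17 in gingiva (0.0844%), where 1352 in bone and 3736 in gingiva had an unadjusted p under 0.05 and DESeq2 called 106 in bone and 1430 in gingiva. Of the 20 it called 0 in both tissues, where 0 in bone and 7 in gingiva had an unadjusted p under 0.05, and DESeq2 called 0 in bone and 2 in gingiva (among them Usp2, lower in LiTra).

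In bone, Bhlhe40 was called among the 20 in Li, where 3.51% of all genes were called, and Bhlhe40, Clock and Btrc in LiTra. The 3 of 20 are no more than the 16.9% of all genes called in LiTra against Co bone. Bhlhe40, an E-box repressor like Bhlhe41, rose to 93.2 ± 12.2 CPM in Li, against 60.4 ± 2.02 CPM in Co (log2 difference 0.63 ± 0.12, edgeR adjusted p = 0.00947). In LiTra it rose to 96.5 ± 12.1 CPM (log2 difference 0.68 ± 0.12, edgeR adjusted p = 0.00148), with every Li and LiTra library above every Co library. Clock, the usual partner of Arntl, rose to 67.9 ± 7.07 CPM in LiTra, against 38.0 ± 8.18 CPM in Co (log2 difference 0.84 ± 0.19, edgeR adjusted p = 0.00936). Btrc, part of a ubiquitin ligase that marks period proteins for breakdown, fell to 22.5 ± 2.49 CPM in LiTra, against 39.6 ± 5.63 CPM in Co (log2 difference -0.82 ± 0.18, edgeR adjusted p = 0.00701). LiTra also differed from Tra, where edgeR called 5.56% of all genes, in Bhlhe40, by 0.60 ± 0.12, and in Btrc, by -0.68 ± 0.18, a call lost in 11 of 16 fits without 1 library. Whether the bone and gingiva responses of these genes differ was not tested. In bone Usp2 had 73.9 CPM in Tra 3, 29.7 CPM in LiTra 1 and 32.6 CPM in Co 3, each above every other library of its group.

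**Figure D5:**
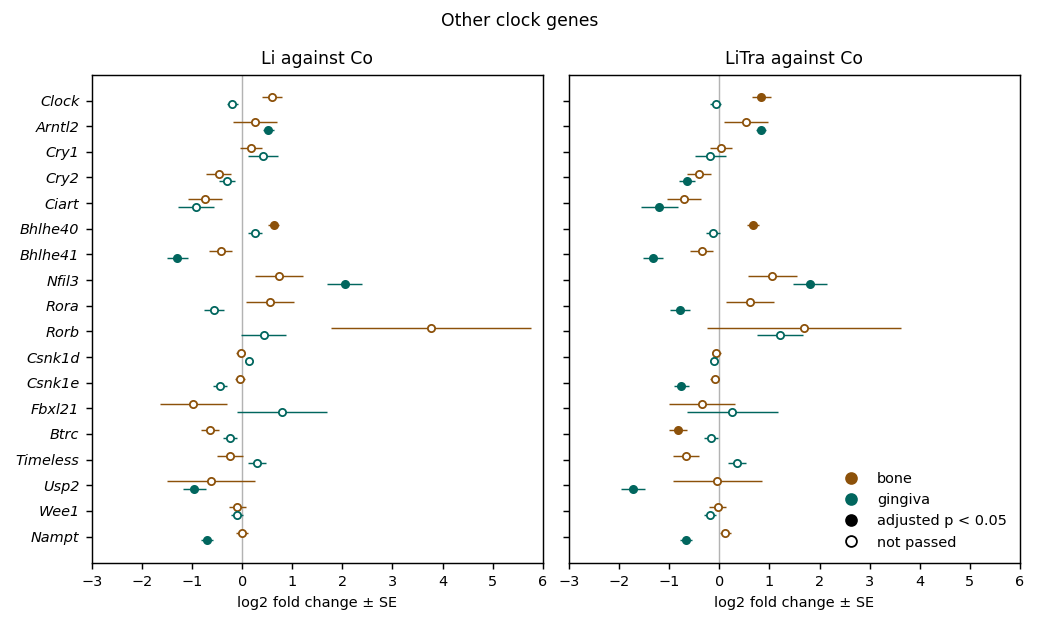
Log2 fold change ± SE (edgeR, n = 4 per group) of 18 of the 20 other clock genes in Li against Co on the left and LiTra against Co on the right; brown is bone, green gingiva, and filled points passed an adjusted p under 0.05. In gingiva Nfil3 lies far to the right, at 2.04 in Li, and Usp2 to the left, at -1.72 in LiTra.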

How the data were processed

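Poly(A) RNA-seq was done on bone and gingiva, per the labels' protocols. The authors deposited 1 table per tissue of estimated counts per gene, and every value was a whole number. Trimmomatic 0.39, FastQC 0.11.9, HISAT2 2.2.1, StringTie 2.1.7, DESeq2 1.32.0 and build GRCm39 are named, per the submitters' processing notes, and the way reads were assigned to genes is not given in the sources used here. Rounding the expected counts changed nothing, and 0 columns went unused. Of 55359 identifiers, 52083 matched a symbol in GENCODE M21 (build GRCm38), which also gave exon lengths and overlaps. Columns marked CR were taken as the composite resin (Tra) libraries.

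Genes passed edgeR's filterByExpr (minimum count 10, total 15). Each tissue's 16 libraries were fitted together with edgeR 4.0.16 (R 4.3.3, TMM, quasi-likelihood, no covariates), with Benjamini-Hochberg adjusted p under 0.05 over all genes tested, and Co bone was set against Co gingiva in 1 fit of 32 libraries. CPM were computed from the deposited counts with TMM factors, and log2 CPM with a prior count of 2. Correlations used 100000 permutations within groups. The fits were tested on simulated data. The 10 genes, the other lists and the tests were chosen with earlier results of these data known. Named genes were the 10, the genes of the other lists called in a comparison, and the 5 most like Dbp and Arntl per tissue, with mean log2 CPM of at least 1; Thra and Sphk2 were added for their exon overlaps after seeing the data. Some genes of these lists enter the counts and are not reported here. Alternatives were DESeq2 1.42.0 and its size factors, no filter, a replicate block, only the 2 groups compared, a prior count of 0.5 and leaving out libraries. Depth was at least 36913075 counts per library, and Npas2 and Arntl had the fewest counts of the 10 genes.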

Additional observations from a re-analysis of the deposited data

Results flagged for a closer look

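The threshold used here flags about 1 in 20 sets by chance if values are independent and normally distributed. The sets share libraries, and the share flagged over all genes was not computed. In 240 sets of 4 libraries (30 clock genes, 2 tissues, 4 groups), 22 held 1 library far from the other 3, and 18 of them are given here. Among the 10 clock genes these were Per2 in bone Li 4 (94.9 CPM, others 49.2 to 56.6), Tef in bone Li 4 (167 CPM, others 136 to 138), Tef in gingiva Li 3 (191 CPM, others 165 to 169) and Nr1d1 in gingiva Tra 1 (54.8 CPM, others 33.8 to 36.8).

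Of the other clock genes, 6 of the values given came from bone Tra 3, LiTra 1 and Co 3, which are rich in nasal gland reads. Tra 3 stood high in Usp2 (73.9 CPM), Cry2 (58.0 CPM) and Nfil3 (44.5 CPM), LiTra 1 in Nfil3 (38.6 CPM) and Usp2 (29.7 CPM), and Co 3 in Usp2 (32.6 CPM). The part of the nasal gland reads in these values was not tested. The rest were Bhlhe40 in bone LiTra 2 (114 CPM, others 88.9 to 91.9), Bhlhe41 in bone Li 2 (13.3 CPM), where nasal gland markers took 23.9% of the counts, gingiva LiTra 3 (20.1 CPM) and gingiva Tra 3 (16.7 CPM), Rorb in bone Li 3 (2.46 CPM) and Timeless in gingiva Li 4 (15.2 CPM). In gingiva, Usp2 in Co 2 (33.8 CPM) and Wee1 in LiTra 3 (41.1 CPM) also stood away from their groups.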

How the results depend on the processing

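The counts of other clock genes called depended on the setting. In bone Li against Co 1 was called and DESeq2 or the fit without Co 3, Tra 3 and LiTra 1 called 3, and 1 to 2 were called without 1 library. In bone LiTra against Tra 2 were called, 1 with no filter or with the replicate block, 0 with only the 2 groups compared, and 1 to 2 without 1 library. In bone LiTra against Co 3 to 5 were called without 1 library, the 5 without Tra 3. In gingiva Li against Co 5 were called, and 3 with only the 2 groups. In gingiva LiTra against Li 0 were called, 2 by DESeq2, and 0 to 2 without 1 library (2 without Li 1). In gingiva LiTra against Tra 10 were called, and 7 to 10 without 1 library. Of the 10 clock genes, 4 were called in Co bone against Co gingiva, 2 with no filter, 3 with the replicate block (Npas2 was lost), and 2 to 4 without 1 library. Relations of Arntl that passed numbered 1, then 0 without bone Co 3, Tra 3 and LiTra 1 and 0 to 3 without 1 library. Relations between tissues that passed numbered 0, then 1 without those pairs and 0 to 3 without 1 pair (2 without Tra 3, 3 without Tra 4). The cause was not tested. Over all genes, calls in bone numbered 398 to 1890 in Li against Co (745 as reported), 2585 to 4964 in LiTra against Co (3589) and 438 to 2410 in LiTra against Tra (1179) under the alternatives, and in gingiva 407 to 2736 in Li against Co (1509) and 1 to 1430 in LiTra against Li (17). Without 1 library, bone Li against Co had 202 to 1232 calls, bone LiTra against Co 2169 to 4828, bone LiTra against Tra 536 to 1956, gingiva Li against Co 521 to 2191, gingiva LiTra against Tra 2402 to 4150 (3787 as reported), and gingiva LiTra against Li 0 to 893, the 893 without Li 1. Over all genes, same-numbered libraries shared little deviation at the median (r of -0.085 across bone groups, 0.011 across gingiva groups and 0.041 between the tissues). The same number was the best match in 6 of 16 pairs between the tissues. Each bone library had only 4 gingiva libraries of its group to match, so some such matches arise by chance. Correlations over all genes cannot decide whether same-numbered libraries come from 1 mouse. The replicate block changed no other count of clock genes by over 1.5 times. Npas2 and Arntl had the lowest counts of the clock genes followed, and the part of depth in their spread was not tested.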

Other observations

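Genes outside the clock that respond to glucocorticoids or to temperature were looked at in the same fits. Of 10 glucocorticoid-responsive genes, edgeR called 0 in Li bone (3 at an unadjusted p under 0.05, 2 by DESeq2), 2 higher in LiTra bone, 1 higher in Li gingiva, and 2 higher and 1 lower in LiTra gingiva, each against Co. Over all genes edgeR called 16.9% in LiTra bone, 7.49% in Li gingiva and 22.9% in LiTra gingiva, so these counts lie near the share of all genes. Sgk1, a kinase that glucocorticoids induce, rose to 103 ± 19.0 CPM in LiTra bone, against 55.0 ± 7.79 CPM in Co (SD, n = 4 each; log2 difference 0.90 ± 0.17, SE; edgeR adjusted p = 0.00217). In gingiva Sgk1 rose by 0.53 ± 0.12 in Li and 0.45 ± 0.12 in LiTra, and the Li call was lost without Li 2 or Co 1 and with only the 2 groups compared (edgeR adjusted p = 0.0763). Dusp1, a phosphatase that many stimuli induce, rose by 1.25 ± 0.36 in LiTra bone and 0.998 ± 0.33 in LiTra gingiva, and each call was lost in 5 of 16 fits without 1 library (bone LiTra 1, LiTra 2, Co 1, Co 2 or Co 4; gingiva LiTra 1, LiTra 4, Co 1, Co 3 or Co 4). Klf15, a transcription factor that glucocorticoids induce, went the other way: it fell to 5.001 ± 2.17 CPM in LiTra gingiva, against 11.4 ± 2.11 CPM in Co (log2 difference -1.19 ± 0.27, edgeR adjusted p = 0.00661), and was also lower than in Tra. In Tra against Co edgeR called 0 of the 10 in each tissue, where 1 in bone and 2 in gingiva had an unadjusted p under 0.05 and DESeq2 called 0 in bone and 1 in gingiva.

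Of the 2 cold-inducible RNA-binding proteins, Cirbp fell in LiTra bone to 28.5 ± 5.60 CPM, against 48.0 ± 3.91 CPM in Co (log2 difference -0.75 ± 0.16, SE; edgeR adjusted p = 0.00685). It fell in Li bone by -0.64 ± 0.16, a call lost in 12 of 16 fits without 1 library. Rbm3 differed from Tra by 0.46 ± 0.16 in LiTra gingiva, which edgeR did not call (adjusted p = 0.053) and DESeq2 did.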
